A study of Mus musculus with 20 samples.

Results

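The genes described here were 9 genes of the transforming growth factor beta (TGF-beta) system in the mouse ovary, chosen by name from the 54838 genes counted in each library. They comprised the ligands Tgfb1, Tgfb2 and Tgfb3, the receptors Tgfbr1, Tgfbr2 and Tgfbr3, the latent binding proteins Ltbp1 and Ltbp3, and Tgfbi, a secreted matrix protein named for its induction by TGF-beta. The list was matched by symbol to the Ensembl identifiers, and all 9 genes had enough counts to be tested in every comparison. Ovaries came from females of the Dummerstorf high-fertility line FL1, an outbred line bred over many generations for litter size and litter weight, and from the unselected control line (ctrl) of the same outbred origin. The labels name no transgene in either line. The labels give the ctrl mice as WT and the FL1 mice as FL1, and give every mouse the age of 77 days. Each line was sampled in estrus, the stage around ovulation, and in diestrus, when corpora lutea fill much of the ovary, with 5 libraries per line and stage and 1 library per animal.

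TGF-beta is secreted in a latent form, bound to a part of its own precursor that is tied to the matrix by latent binding proteins, and is released by proteases or by integrins. The released ligand binds the type II receptor Tgfbr2, often after capture by the co-receptor Tgfbr3, and Tgfbr2 then activates the type I receptor Tgfbr1, which phosphorylates Smad2 and Smad3. In the ovary, ligands and receptors are made by granulosa, theca and luteal cells, and the pathway is known for its role in follicle growth, steroid synthesis and the remodelling of the corpus luteum.

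In FL1 diestrus ovaries, transcripts of Tgfbr1, Tgfbi and Ltbp1 were more abundant than in ctrl diestrus ovaries, by 1.68, 1.77 and 1.56 times in the group means, and than in FL1 estrus ovaries. Ltbp1 lay closest to the threshold between the lines and passed it in few of the fits with a library left out. In estrus none of the 3 genes passed the test between the lines (edgeR, DESeq2 and limma-voom). Whether the line difference changed with the stage was tested too, and edgeR called 0 of the 9 genes and DESeq2 only Tgfbi. Among the ligands, Tgfb3 was lower in diestrus than in estrus in both lines, whereas Tgfb1 and Tgfb2 passed the test in no comparison. Tgfbr3 was lower in diestrus than in estrus in FL1, and its change in ctrl was of nearly the same size but did not pass the test. Tgfbr2 and Ltbp3 passed the test in no comparison.

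Because Tgfbr1, Ltbp1 and Tgfbi were the members that differed between the lines, the 250 bases before their transcription starts are given, from RefSeq on GRCm38.p6 in 5' to 3' direction of the gene. The windows lie at chr4:47352972-47353221 on the plus strand for Tgfbr1, chr17:75005279-75005528 on the plus strand for Ltbp1 and chr13:56609336-56609585 on the plus strand for Tgfbi. RefSeq lists 2 starts each for Tgfbr1 and Ltbp1, and the start nearest to the annotated start of the gene was used. For Tgfbi the RefSeq start at 56609586 lies downstream of the annotated gene start at 56609523. The end of the Tgfbi window therefore lies inside the annotated gene. Capitals mark the letters of the SMAD box CAGAC and of the GC box GGGCGG on either strand.
Tgfbr1: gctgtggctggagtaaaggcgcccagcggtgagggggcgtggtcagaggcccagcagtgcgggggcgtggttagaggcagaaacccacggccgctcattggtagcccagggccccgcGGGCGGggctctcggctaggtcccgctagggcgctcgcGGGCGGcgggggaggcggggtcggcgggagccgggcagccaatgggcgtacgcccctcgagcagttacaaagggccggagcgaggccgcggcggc
Ltbp1: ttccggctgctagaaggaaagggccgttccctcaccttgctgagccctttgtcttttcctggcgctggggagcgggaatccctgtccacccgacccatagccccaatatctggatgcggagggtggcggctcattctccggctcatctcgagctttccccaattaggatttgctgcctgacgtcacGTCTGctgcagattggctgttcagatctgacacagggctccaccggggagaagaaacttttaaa
Tgfbi: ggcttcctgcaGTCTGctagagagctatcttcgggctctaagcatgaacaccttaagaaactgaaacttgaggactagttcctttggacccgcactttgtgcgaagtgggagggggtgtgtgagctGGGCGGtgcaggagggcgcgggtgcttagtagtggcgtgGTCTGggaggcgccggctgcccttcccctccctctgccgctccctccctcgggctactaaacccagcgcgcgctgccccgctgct

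In all, 5 motifs were searched on both strands, and none of them contains another: CAGAC, the palindromic SMAD element GTCTAGAC, the AP-1 site TGANTCA, the GC box GGGCGG and the NR5A site CAAGGTCA. The Tgfbr1 window held the GC box with its first base 133 and 95 bases before the start. The Ltbp1 window held CAGAC at 64 bases before the start. In the Tgfbi window CAGAC lay at 239 and 85 bases and the GC box at 124 bases before the start. RefSeq promoters were matched for 7 of the 9 members, and CAGAC was found in 5 of them and the GC box in 3. Of all 32851 promoter windows of this length, 42.2% held CAGAC, 32.7% the GC box, 6.75% the AP-1 site, 1.33% the NR5A site and 0.167% the palindromic element. The last 3 motifs were found in 0 of the 7 windows. A match is a description of the letters and not evidence that a factor binds there.

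Total counts were 5991223 to 10352718 per library. Markers of the ovary were present in every group, with summed CPM per library (counts scaled by TMM factors to a common library size) of 162 to 559 for 8 oocyte genes, 1260 to 3853 for 7 granulosa genes and 6019 to 34874 for 7 luteal genes. Genes of the oviduct and of fat, which lie beside the ovary, summed to 14.2 to 36.6 CPM over 6 genes and to 17.1 to 46.8 CPM over 5 genes. The library ctrl estrus replicate 5 resembled its group least, with a mean correlation of 0.923 with the other libraries of the group. The other ctrl libraries had 0.948 to 0.961 and the FL1 libraries 0.964 to 0.975. Every FL1 library thus resembled its group more than any ctrl library did. In whole ovaries a lower value can come from fewer cells of a type or from less RNA per cell, and these cannot be told apart. P-values come from tests that set the difference between groups against the spread between these mice.

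The ligand Tgfb1 (ENSMUSG00000002603, chr7:25687002-25705077, plus strand, GRCm38), the best-studied ligand of the family, was the least counted of the members, with 38 to 198 counts per library. In ctrl estrus the 5 libraries held 8.48, 11.7, 14.4, 15.9 and 34.8 CPM, and in FL1 estrus 8.10, 8.66, 10.3, 11.2 and 13.9 CPM. In ctrl diestrus the values were 9.37, 12.04, 12.2, 16.8 and 18.7 CPM, and in FL1 diestrus 5.44, 9.41, 9.60, 9.66 and 15.0 CPM. The ranges of all 4 groups overlapped, and a single ctrl estrus library, replicate 5, lay above the rest. The log2 fold change (log2FC) of FL1 against ctrl was -0.69 ± 0.32 (SE) in estrus (adjusted p = 0.307, edgeR quasi-likelihood test) and -0.50 ± 0.25 in diestrus (adjusted p = 0.327). Without ctrl estrus replicate 5 the log2FC in estrus was -0.27 (adjusted p = 0.586).

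Tgfb2 (ENSMUSG00000039239, chr1:186622792-186705989, minus strand), a ligand that depends on Tgfbr3 for high-affinity binding, was listed at 17.5, 26.4, 26.7, 38.6 and 39.5 CPM in ctrl estrus and at 22.3, 26.7, 28.3, 29.7 and 32.6 CPM in FL1 estrus. The diestrus libraries held 21.9, 23.8, 27.9, 29.0 and 37.4 CPM in ctrl and 17.7, 19.6, 22.6, 22.8 and 23.8 CPM in FL1. FL1 diestrus had the lowest mean, but its range overlapped those of the other groups. The log2FC was -0.40 ± 0.15 for FL1 against ctrl in diestrus (adjusted p = 0.171) and -0.39 ± 0.13 for diestrus against estrus in FL1 (adjusted p = 0.0542). The latter passed the threshold only when FL1 estrus replicate 2 was left out (adjusted p = 0.0290).

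Tgfb3 (ENSMUSG00000021253, chr12:86056745-86079041, minus strand) was the ligand that differed between the stages. Estrus libraries held 47.5, 49.4, 49.6, 52.4 and 56.6 CPM in ctrl and 39.5, 46.5, 49.7, 49.9 and 51.7 CPM in FL1. Diestrus libraries held 28.2, 30.7, 31.6, 33.0 and 38.5 CPM in ctrl and 25.7, 31.4, 34.8, 38.4 and 40.9 CPM in FL1. In ctrl all 5 diestrus values were below all 5 estrus values, and in FL1 a single pair of 25 went the other way. Tgfb3 fell by 0.65 ± 0.11 on the log2 scale in ctrl (adjusted p = 0.00824) and by 0.47 ± 0.13 in FL1 (adjusted p = 0.0187). Between the lines the log2FC was -0.11 ± 0.10 in estrus and 0.08 ± 0.13 in diestrus, with adjusted p of 0.681 and 0.832. The 3' end of Tgfb3 overlaps Ttll5 on the other strand, and the strand setting of the counting is not given in the sources used here. Ttll5 was counted at 17.4 to 27.3 CPM, and its own log2FC between the stages was -0.04 ± 0.15 in ctrl and -0.01 ± 0.12 in FL1.

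**Figure D1:**
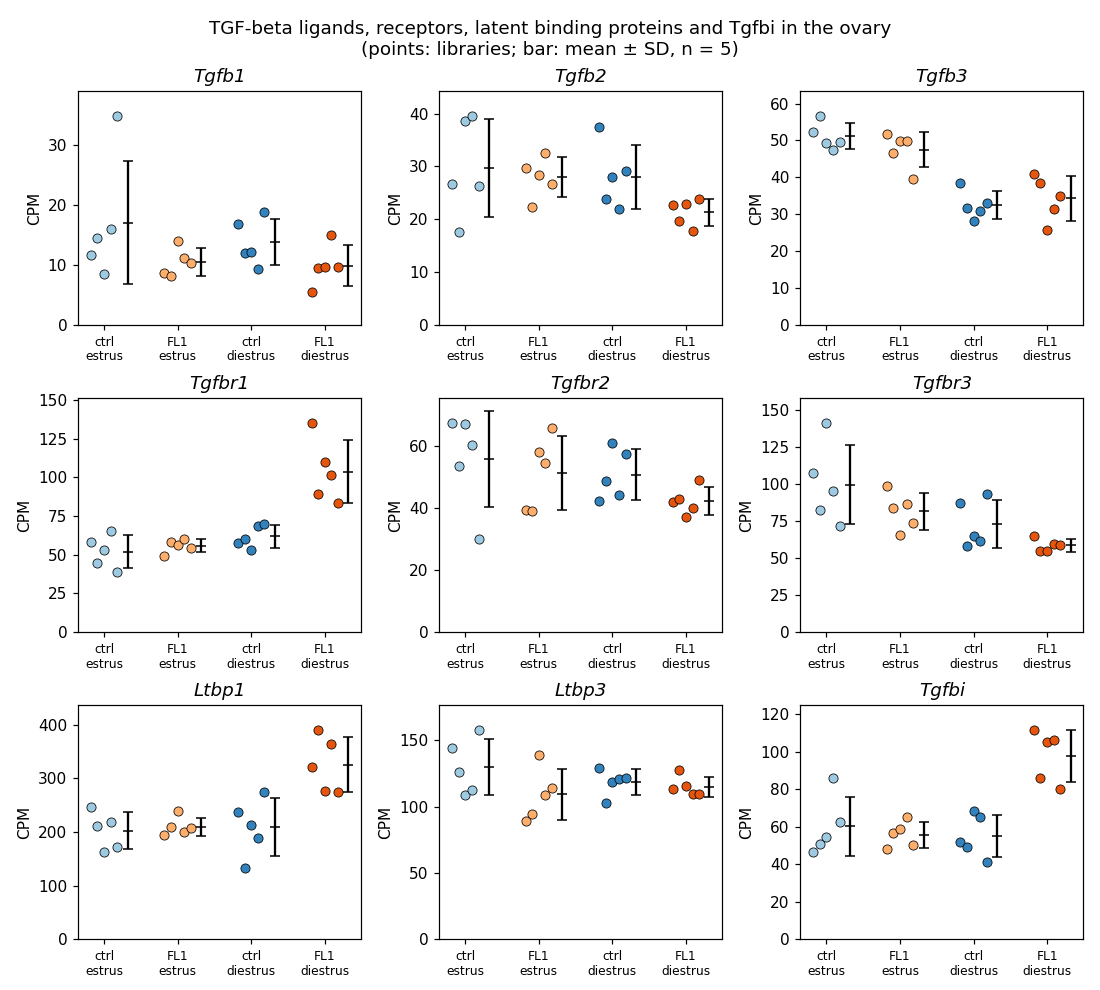
Normalized counts (CPM, y axis, starting at 0) of the 9 genes in the 4 groups of line and stage (x axis); points are libraries and bars are the mean ± SD of 5 libraries. The 5 FL1 diestrus libraries lie above all ctrl diestrus libraries for Tgfbr1, Ltbp1 and Tgfbi, and the diestrus means lie below the estrus means for Tgfb3 in both lines.

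Tgfbr1 (ENSMUSG00000007613, chr4:47353222-47414931, plus strand), the type I receptor kinase also known as ALK5, was the receptor that differed between the lines. In ctrl the libraries held 38.9, 44.5, 52.9, 58.1 and 65.4 CPM in estrus and 53.2, 57.3, 60.2, 68.6 and 69.9 CPM in diestrus. In FL1 they held 49.0, 54.5, 56.5, 58.2 and 60.2 CPM in estrus and 83.1, 89.2, 101.2, 109.6 and 135 CPM in diestrus. All 5 FL1 diestrus libraries were above every other library of the series, and the other 3 groups overlapped. The group means were 52.0 ± 10.6 (SD, n = 5) in ctrl estrus, 55.7 ± 4.27 in FL1 estrus, 61.8 ± 7.24 in ctrl diestrus and 103.6 ± 20.3 CPM in FL1 diestrus. Tgfbr1 was higher in FL1 than in ctrl in diestrus by a log2FC of 0.74 ± 0.13 (adjusted p = 0.00487) and higher in diestrus than in estrus in FL1 by 0.90 ± 0.12 (adjusted p = 8.34e-05). In estrus the line difference was 0.09 ± 0.13 (adjusted p = 0.796), and between the stages in ctrl it was 0.25 ± 0.14 (adjusted p = 0.453). The diestrus comparison of the lines and the stage comparison in FL1 share the 5 FL1 diestrus libraries, so the values stand side by side and are not independent of each other.

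Tgfbr2 (ENSMUSG00000032440, chr9:116084293-116175360, minus strand), the type II receptor that binds the ligand, held 30.1 to 67.5 CPM in ctrl estrus with a median of 60.5 and 39.0 to 66.1 CPM in FL1 estrus with a median of 54.6. In diestrus it held 42.4 to 61.1 CPM in ctrl with a median of 48.8 and 37.1 to 49.1 CPM in FL1 with a median of 42.1. The 4 ranges overlapped. The lowest adjusted p was 0.185, for diestrus against estrus in FL1 (log2FC -0.28 ± 0.14).

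Tgfbr3 (ENSMUSG00000029287, chr5:107106570-107289629, minus strand) encodes betaglycan, a co-receptor that presents TGF-beta to Tgfbr2 and also binds inhibin. Estrus libraries held 71.2, 82.6, 95.05, 108 and 141 CPM in ctrl and 65.2, 73.9, 83.4, 86.2 and 98.5 CPM in FL1. Diestrus libraries held 58.3, 61.2, 64.7, 86.9 and 93.3 CPM in ctrl and 54.5, 54.6, 59.0, 59.6 and 64.8 CPM in FL1. In FL1 all diestrus values were below all estrus values, by less than 1 CPM at the nearest pair, and with DESeq2's size factors 1 of 25 pairs went the other way. Tgfbr3 fell by 0.47 ± 0.11 on the log2 scale from estrus to diestrus in FL1 (adjusted p = 0.00705), but not in 1 fit of all 20 libraries (adjusted p = 0.0603). In ctrl the log2FC was -0.45 ± 0.19, of nearly the same size but with an adjusted p of 0.260, and the difference between the lines' stage changes was -0.03 ± 0.23 (adjusted p = 0.979).

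The 3' sequencing gives about 1 read per transcript, so the counts of the 3 receptors can be set in proportion without a length correction, although priming can differ between genes. Of the summed receptor CPM, Tgfbr1 made up 25.4% ± 3.54 (SD, n = 5) in ctrl estrus, 29.6% ± 2.46 in FL1 estrus, 33.5% ± 4.07 in ctrl diestrus and 50.4% ± 5.01 in FL1 diestrus. In FL1 diestrus it was the most counted receptor in each library, at 43.5% to 55.8% of the sum, while Tgfbr3 had the largest mean share in the other groups. The receptor sum itself was 186 ± 20.9 CPM in ctrl diestrus and 204 ± 21.8 CPM in FL1 diestrus, with overlapping ranges. Of the ligand sum, Tgfb3 was the largest share in every group mean, from 44.0% ± 3.96 in ctrl diestrus to 55.4% ± 3.53 in FL1 estrus. These shares are a description and were not tested.

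**Figure D2:**
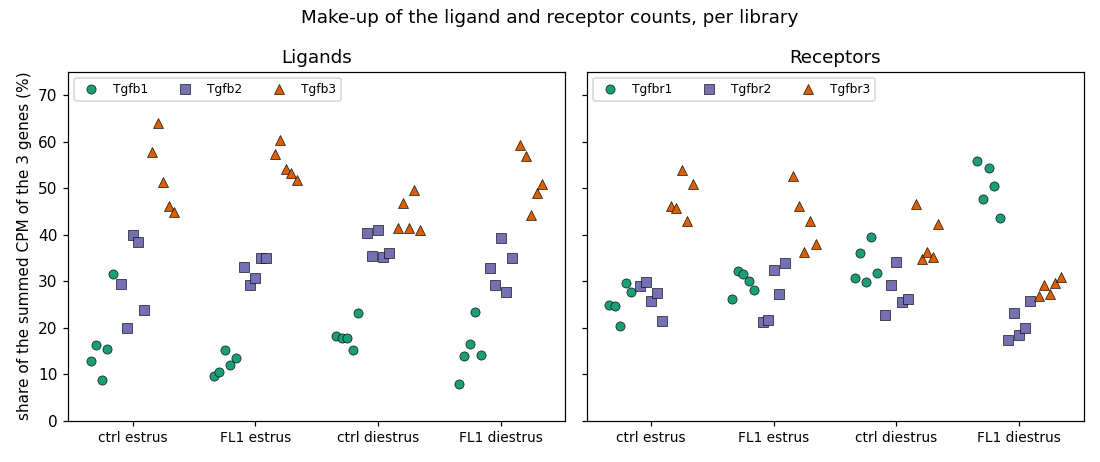
Share (y axis, percent) of each ligand in the summed CPM of the 3 ligands (left) and of each receptor in the summed CPM of the 3 receptors (right), in the 4 groups (x axis); each symbol is a library. Tgfbr1 takes 43.5% to 55.8% of the receptor sum in FL1 diestrus and at most 39.4% in the other groups.

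Ltbp1 (ENSMUSG00000001870, chr17:75005568-75392512, plus strand) encodes the latent binding protein that ties latent TGF-beta to the matrix. In ctrl the libraries held 163, 172, 211, 218 and 247 CPM in estrus and 132, 189, 212, 238 and 274.8 CPM in diestrus. In FL1 they held 195, 199, 208, 209 and 238 CPM in estrus and 275.5, 276, 322, 363 and 389.9 CPM in diestrus. The FL1 diestrus values were above all others, but the nearest ctrl diestrus library was less than 1 CPM away. The group means were 209 ± 53.6 CPM (SD, n = 5) in ctrl diestrus and 325 ± 51.3 CPM in FL1 diestrus. Ltbp1 was higher in FL1 than in ctrl in diestrus by a log2FC of 0.64 ± 0.16 (adjusted p = 0.0436). Passing the threshold depended on the set of libraries: it held in 2 of 10 fits with a library left out (ctrl diestrus replicate 1 or 5), and in the other 8 the adjusted p was 0.0516 to 0.111. Diestrus against estrus in FL1 gave 0.63 ± 0.10 (adjusted p = 4.56e-04), and all 10 fits with a library left out passed.

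Ltbp3 (ENSMUSG00000024940, chr19:5740904-5758532, plus strand), a related latent binding protein, held 109 to 158 CPM in ctrl estrus with a median of 126 and 89.5 to 139 CPM in FL1 estrus with a median of 109. The diestrus ranges were 103 to 129 CPM in ctrl, with a median of 121, and 109 to 127 CPM in FL1, with a median of 113. All 4 ranges overlapped, and the lowest adjusted p was 0.407, for FL1 against ctrl in estrus (log2FC -0.25 ± 0.14).

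Tgfbi (ENSMUSG00000035493, chr13:56609523-56639562, plus strand) encodes a secreted matrix protein that binds collagens and integrins. In ctrl the libraries held 46.7, 50.8, 54.2, 62.8 and 86.0 CPM in estrus and 41.0, 49.3, 52.0, 65.3 and 68.2 CPM in diestrus. In FL1 they held 47.9, 50.1, 56.5, 59.0 and 64.9 CPM in estrus and 80.1, 86.2, 105, 106 and 111 CPM in diestrus. FL1 diestrus was above ctrl diestrus and FL1 estrus in all 25 pairs of libraries each, and a single ctrl estrus library, at 86.0 CPM, lay within its range. The group means were 55.1 ± 11.4 CPM (SD, n = 5) in ctrl diestrus and 97.8 ± 13.8 CPM in FL1 diestrus. Tgfbi was higher in FL1 than in ctrl in diestrus by 0.83 ± 0.14 (adjusted p = 0.00414) and higher in diestrus than in estrus in FL1 by 0.81 ± 0.11 (adjusted p = 1.12e-04). In estrus the line difference was -0.11 ± 0.16 (adjusted p = 0.783).

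Ordered by their means, most neighbouring groups overlapped. For Tgfbr1 the order was ctrl estrus, FL1 estrus, ctrl diestrus and FL1 diestrus, and the last step alone, from 61.8 to 103.6 CPM, had no overlap. For Ltbp1 the order was ctrl estrus, ctrl diestrus, FL1 estrus and FL1 diestrus, and the last step, from 209.9 to 325 CPM, had no overlap either. For Tgfbi the order was ctrl diestrus, FL1 estrus, ctrl estrus and FL1 diestrus, with overlap at each step. For Tgfb3 both diestrus groups came before both estrus groups, and Tgfb1, Tgfb2, Tgfbr2 and Tgfbr3 had their lowest mean in FL1 diestrus and their highest in ctrl estrus, with overlap at each step.

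**Figure D3:**
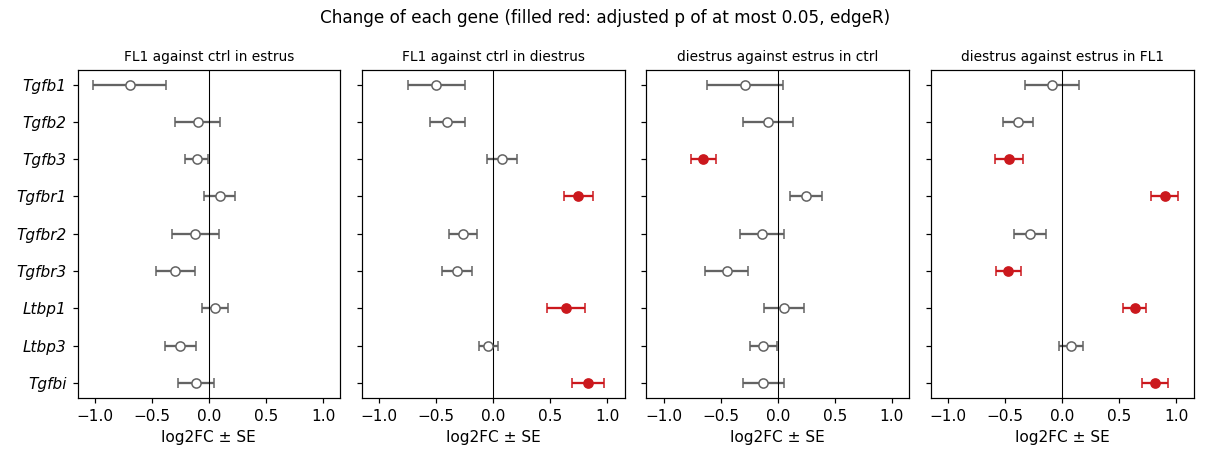
Log2 fold change (x axis) of each gene (y axis) in the 4 comparisons, with its standard error; filled red points have an adjusted p of at most 0.05 in edgeR's quasi-likelihood test. FL1 against ctrl has 0 such genes in estrus and 3 in diestrus, and diestrus against estrus has 1 in ctrl and 5 in FL1.

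Counted over the 9 genes, FL1 against ctrl in estrus gave 0 differentially expressed genes, where edgeR's quasi-likelihood test called 2.33% of the 13374 genes tested. In that comparison 1 of the 9 had an unadjusted p under 0.05, against 15.9% of all genes, and DESeq2 and limma-voom also called 0. In diestrus 3 of the 9 were called, all higher in FL1, where 4.11% of 13259 genes were called and 2.29% were called higher. The same 3 genes were higher in FL1 without overlap between the lines, beside 5.45% of all genes without overlap and 2.96% without overlap and higher. The median log2FC of the 9 genes was -0.05 in diestrus, beside -0.01 over all genes, and 5 of the 9 had values below 0. Between the stages in ctrl 1 of 9 was called, Tgfb3, which was lower in diestrus and did not overlap between the stages, where 2.85% of 13334 genes were called, 1.78% were called lower and 4.52% did not overlap. In FL1 5 of 9 were called, with 15.9% of 13350 genes called: Tgfbr1, Ltbp1 and Tgfbi were higher and Tgfb3 and Tgfbr3 lower in diestrus, beside 8.49% of genes called higher and 7.42% called lower. Of these 5 all but Tgfb3 did not overlap between the stages, against 12.2% of all genes. The 9 genes were chosen with earlier results of these data known, so these counts describe them and are not a test of the pathway.

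Whether the line difference changed with the stage was tested as an interaction over all 20 libraries. None of the 9 genes was called in edgeR's quasi-likelihood test, which called 8 of 14154 genes (0.0565%), and 3 of the 9 had an unadjusted p under 0.05, against 11.7% of all genes. The line difference of Tgfbi was larger in diestrus than in estrus by 0.94 ± 0.22 on the log2 scale (adjusted p = 0.114), that of Tgfbr1 by 0.65 ± 0.19 (adjusted p = 0.177) and that of Ltbp1 by 0.58 ± 0.22 (adjusted p = 0.280). DESeq2, which called 148 of 15534 genes, called Tgfbi (adjusted p = 0.0206). Limma-voom, which called 3 of 14154 genes, called 0 of the 9.

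Over the 20 libraries the log2 CPM of Tgfbr1 had a Pearson r of 0.77 with that of Tgfbi and of 0.72 with that of Ltbp1, and Ltbp1 and Tgfbi had 0.59. After the mean of each group was subtracted, the values were 0.33, 0.21 and -0.09, which describe how the genes varied among libraries of the same line and stage. These values share the libraries and their depth, and they carry no test.

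**Figure D4:**
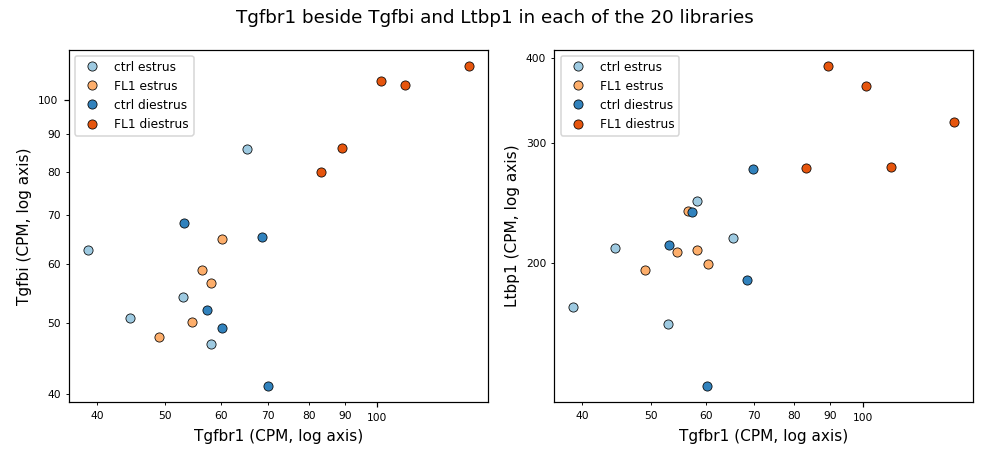
CPM of Tgfbi (left) and Ltbp1 (right) on the y axis against CPM of Tgfbr1 on the x axis, both on log axes; each point is a library, coloured by group. The 5 FL1 diestrus libraries stand at the upper right, with 83.1 to 135 CPM of Tgfbr1, and the other 15 libraries lie at 69.9 CPM of Tgfbr1 or less.

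Of 11072 genes with a mean of at least 5 CPM, those most like Tgfbr1 over the 20 libraries included Gm13411 (Pearson r 0.86) and Kif26a (0.86). Within groups Gm13411 had an r of 0.09 and Kif26a one of 0.41. Kif26a (0.86), Man2a2 (0.85) and Mcf2l (0.84) were most like Tgfbi, and Tacc2 (0.83), Dhx34 (0.76) and Coch (0.76) were most like Ltbp1. Tgfb3 was most like Clip3 (0.88), Wnt6 (0.88) and Ren1 (0.87), with values of 0.38, 0.34 and 0.25 within groups. Tgfbr2 was most like Ppp4c (0.90), Lamc1 (0.87) and Akap10 (0.87), and here the values within groups were as high, at 0.91, 0.87 and 0.89. Tgfb1 was most like Nacc2 (0.85), Gpc1 (0.84) and Arpc4 (0.82). Tgfb2 was most like Col6a3 (0.79), a collagen chain, and Tgfbr3 most like Mns1 (0.84). The genes like Ltbp3 included Rarres2 (0.77) and Cpe (0.76).

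Other genes of the pathway were followed in 4 lists with 93 genes. In estrus, 1 of the 91 tested was called between the lines, 1.10% beside 2.33% of all genes. Smad4, the partner that the receptor-activated Smads bind on their way to the nucleus, had 126 ± 13.3 CPM in ctrl and 171 ± 16.7 CPM in FL1, and was higher by 0.44 ± 0.10 (adjusted p = 0.0412). In diestrus the log2FC of Smad4 was 0.19 ± 0.11 (adjusted p = 0.428).

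In diestrus 2 of 90 were called between the lines, 2.22% beside 4.11% of all genes. Itgb3, an integrin subunit that pairs with Itgav to bind latent TGF-beta, had 35.0 ± 6.83 CPM in ctrl (22.9 to 39.3) and 57.7 ± 13.5 CPM in FL1 (40.1 to 68.9), and was higher by 0.72 ± 0.17 (adjusted p = 0.0318). Gpc1, a heparan sulfate proteoglycan of the cell surface, had 113 ± 35.0 CPM in ctrl and 68.6 ± 10.97 CPM in FL1, and was lower, with a log2FC of -0.72 ± 0.17 (adjusted p = 0.0301). Of the 24 genes commonly induced by TGF-beta, which include collagens, Fn1, Tagln and Ccn2, 23 were tested and 0 were called by edgeR's quasi-likelihood test in this comparison, with 5 at an unadjusted p under 0.05, where 17.7% of all genes were, and a median log2FC of -0.10. Of the 26 transducers and regulators edgeR's quasi-likelihood test called 0 in diestrus, with 4 at an unadjusted p under 0.05.

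Between the stages more of the lists was called. In ctrl, 11 of 91 genes passed, 1 higher and 10 lower in diestrus, 12.1% beside 2.85% of all genes. In FL1, 36 of 91 passed, 9 higher and 27 lower, 39.6% beside 15.9% of all genes. The lower genes in FL1 were 12 of the 24 induced genes, 8 of the 24 tested genes of storage and activation and 7 of the 17 co-receptors and extracellular modulators. Among those with the largest changes were Lox, which crosslinks collagen, with a log2FC of -2.39 ± 0.17, Adamts1, a protease of the ovulating follicle, with -2.28 ± 0.22, Mmp2, a gelatinase, with -1.68 ± 0.13 and Pcsk5, a proprotein convertase, with -1.63 ± 0.12. In ctrl the leading genes were Lox with -2.63 ± 0.28, Pcsk5 with -1.80 ± 0.17, Adamts1 with -1.75 ± 0.19, Mmp2 with -1.75 ± 0.27 and Col3a1, a fibrillar collagen, with -1.24 ± 0.16.

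**Figure D5:**
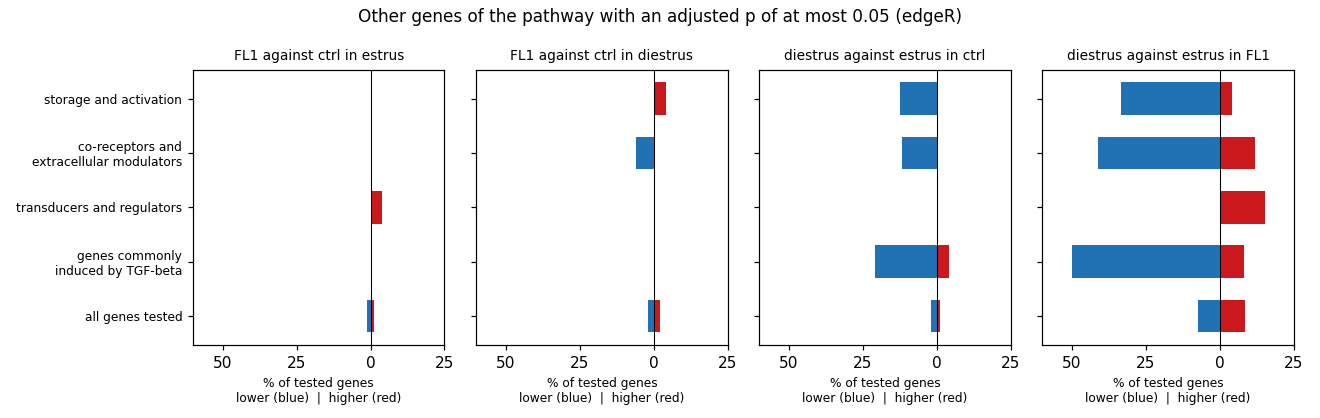
Share (x axis, percent of the tested genes) of each list of pathway genes (y axis) called lower (blue, to the left) or higher (red, to the right) in the 4 comparisons, with all tested genes as the bottom bar; calls are at an adjusted p of at most 0.05 in edgeR's quasi-likelihood test. In diestrus against estrus in FL1, 27 pathway genes are lower and 9 higher.

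In FL1 edgeR's quasi-likelihood test called 4 of the 26 transducers and regulators between the stages, 15.4% beside 15.9% of all genes. All 4 were higher in diestrus than in estrus, where 8.49% of all genes were called higher. In ctrl the test called 0 of 26, beside 2.85% of all genes. There 3 of the 26 had an unadjusted p under 0.05, beside 15.4% of all genes. The called genes in FL1 were higher as follows, on the log2 scale: Skil, a repressor of Smad-driven transcription, by 1.09 ± 0.15, Smad7, the inhibitory Smad, by 0.67 ± 0.17, Ep300, a coactivator, by 0.37 ± 0.09 and Smad3 by 0.26 ± 0.09 (adjusted p = 0.0498). Also in FL1, Ltbp4, another latent binding protein, was higher by 0.33 ± 0.08, and the co-receptors Eng and Nrp1 by 0.50 ± 0.15 and 0.33 ± 0.09. Among the induced genes Junb and Bhlhe40 were higher in FL1 diestrus. In the interaction edgeR's quasi-likelihood test called 0 of the 91 genes tested, with 10 at an unadjusted p under 0.05, so a difference between the lines in these stage changes was not shown.

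Markers of cell types moved with some of these comparisons, and their part in the results was not tested. Between the lines in diestrus, 2 of 7 luteal markers were called higher in FL1 (Lhcgr and Hsd17b7), while the median log2FC of the luteal list was 0.02. The summed luteal CPM overlapped, at 17594 to 34874 in ctrl and 22223 to 29248 in FL1. Foxl2 was called higher among 6 tested granulosa markers, whose list summed to 2452 to 3853 CPM in ctrl and 2505 to 3818 CPM in FL1, and Cd68 among 7 macrophage markers, at 102 to 178 and 128 to 152 CPM, although the median log2FC of the macrophage list was -0.36. Upk1b was called lower among 6 markers of the surface epithelium, and edgeR's quasi-likelihood test called 0 of 6 endothelial markers, at 295 to 432 and 336 to 436 CPM, 0 of 6 stromal and 0 of 6 smooth muscle markers. The test also called 0 of 6 tested blood and platelet markers and 0 of 4 tested theca markers. At an unadjusted p under 0.05 there were 0 endothelial, 1 stromal and 2 smooth muscle markers, beside 17.7% of all genes. The blood and platelet list had 3 and the theca list 1 at that level. Calls in this comparison took in 4.11% of all genes, 2.29% higher and 1.82% lower.

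From estrus to diestrus in FL1, where Tgfbr1, Ltbp1 and Tgfbi were higher, 15.9% of all genes were called, 8.49% higher and 7.42% lower. Of the luteal markers 6 of 7 were also called higher, with sums of 10191 to 22885 CPM in estrus and 22223 to 29248 CPM in diestrus. Of the 6 endothelial markers 4 were called higher, at 212 to 283 CPM in estrus and 336 to 436 CPM in diestrus. All 6 stromal markers were called lower, from 2526 to 4080 CPM in estrus to 1421 to 1984 CPM in diestrus, beside the lower Tgfb3 and Tgfbr3, and 4 of these 6 genes (Dcn, Lum, Col1a1 and Col3a1) are also in the pathway lists. In the same comparison 4 of 6 markers of the surface epithelium (112 to 200.3 CPM in estrus, 63.3 to 95.1 CPM in diestrus) and 3 of 6 of smooth muscle (355 to 527 and 286 to 447 CPM) were called lower. Called higher were 3 of 6 tested granulosa markers (2286 to 3607 and 2505 to 3818 CPM), 1 of 4 tested theca markers, Cyp17a1, with a log2FC of 3.83 (444 to 558 and 595 to 789 CPM), and 3 of 5 tested blood markers (766 to 1414 and 1011 to 2708 CPM), while Pf4 of that list was lower. Bmp15 was lower among 8 oocyte markers (237 to 559 and 203 to 304 CPM). In ctrl, where Tgfb3 was lower in diestrus too, 4 of 6 stromal markers were called lower, with sums of 3014 to 4702 CPM in estrus and 1537 to 2208 CPM in diestrus. Also in ctrl, 2 of 7 luteal markers, Inhba of the granulosa list and Cyp17a1 were called higher, and Cd68 and Myh11 lower. Fewer genes were called in ctrl than in FL1, at 2.85% of all genes, 1.06% higher and 1.78% lower. The ctrl libraries also resembled their groups less, with mean correlations of 0.923 to 0.961, against 0.964 to 0.975 in FL1. Whether this wider spread lowered the number of calls in ctrl was not tested, so fewer calls do not by themselves mean smaller stage changes.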

How the data were processed

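Ovaries of 20 female mice were measured, 5 per line (FL1, ctrl) and stage (estrus, diestrus), as grouped by titles and characteristics in the labels. The source name reads FL1 for all libraries and was not used. The authors prepared QuantSeq 3' libraries, aligned trimmed reads to GRCm38 with STAR and deposited raw counts per Ensembl gene, 1 table per library, without normalization. Their processing notes also name Cuffdiff, and the study tested its counts with DESeq2. The counting tool and its strand setting are not given in the sources used here. Reads of overlapping genes can therefore be shared, and without molecular identifiers the counts include PCR copies.

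Symbols and positions came from GENCODE M21 (54809 of 54838 genes). Genes were tested by the quasi-likelihood test of edgeR 4.0.16 in R 4.3.3 with TMM normalization and filterByExpr (minimum count 10), adjusted by the Benjamini-Hochberg method over all genes tested, with calls at an adjusted p of at most 0.05. Lines were compared within each stage and stages within each line (10 libraries each), and the interaction in all 20 libraries. The standard error is the absolute log2FC divided by the root of F. CPM use TMM factors over all 20 libraries, and log2 CPM a prior count of 2. Depth was 5991223 to 10352718 counts per library. The fit was tested on simulated data with known changes. Near-identical copies were sought as 50 shared words of 31 nt in the last 300 nt of a transcript, and 0 were found for the coding transcripts of the 9 genes. No libraries of a group agreed within sampling noise (chi-square per gene at least 6.32 in 40 pairs).

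The 9 genes and the pathway and marker lists were chosen with earlier results of these data known. Named were all 9 genes, the pathway genes called between the lines or in the interaction, the 5 called pathway genes with the largest absolute log2FC in each stage comparison, and the 3 genes most like each of the 9. Other called genes of the lists were named after their values were seen, and some genes that the rule names are not reported here. Alternatives were DESeq2's size factors in edgeR, DESeq2 1.42.0, limma-voom (limma 3.58.1), other filters on low counts, a replicate block, a joint fit of the 20 libraries and the omission of single libraries. Promoter sequences came from RefSeq on GRCm38.p6, matched by symbol for 7 of the 9 genes.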

Additional observations from a re-analysis of the deposited data

Results flagged for a closer look

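Of 36 groups of 5 libraries (9 genes in 4 groups), 1 held a library far from the rest by Dixon's criterion, and chance alone marks about 1 group in 20. Tgfb1 had 34.8 CPM in ctrl estrus replicate 5, against 8.48 to 15.9 CPM in the other 4 libraries of the group, a gap of 0.718 of the range where 0.71 is the critical value. The same library had the lowest mean correlation with its group (0.923). Without it the log2FC of Tgfb1 for FL1 against ctrl in estrus was -0.27 (adjusted p = 0.586, edgeR) in place of -0.69 (adjusted p = 0.307).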

How the results depend on the processing

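Tgfbr1 and Tgfbi between the lines in diestrus, Tgfb3 between the stages in both lines, and Tgfbr1, Ltbp1 and Tgfbi between the stages in FL1 kept their direction and their adjusted p of at most 0.05 under all 7 alternatives and with each library left out. Ltbp1 between the lines in diestrus passed under 6 of 7 alternatives and in 2 of 10 fits with a library left out (log2FC 0.51 to 0.75), and Tgfbr3 between the stages in FL1 passed under 6 of 7. The number of the 9 genes called was 0 to 0, 2 to 3, 1 to 1, 5 to 6 and 0 to 0 with a library left out (lines in estrus, lines in diestrus, stages in ctrl, stages in FL1, interaction), and DESeq2 called 1 in the interaction. Over all genes, a library left out gave 175 to 418, 349 to 594, 176 to 516, 1582 to 2316 and 0 to 15 calls. DESeq2 called 670, 891 and 771 genes in the first 3 comparisons and 148 in the interaction. Keeping genes with at least 1 count gave 477 and 846 between the lines and 17 in the interaction, 1 fit of all 20 libraries gave 531 between the lines in estrus and 909 between the stages in ctrl, and limma-voom gave 3 in the interaction. The cause was not tested.

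The labels number the libraries 1 to 5 in each group, but same-numbered mice did not deviate together: correlations were -0.12 to 0.16, with 1 to 2 of 5 pairs per comparison over 0.1, and 3, 2, 2 and 4 of 10 libraries resembled their own number most. With the replicate block edgeR called 230, 498, 259, 2020 and 12 genes and 0, 2, 1, 5 and 0 of the 9, and Ltbp1 in diestrus had an adjusted p of 0.0895.

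Values under the threshold changed sign in some fits with a library left out. Between the lines in estrus the log2FC ran from -0.24 to 0.024 for Tgfb2, from -0.015 to 0.14 for Ltbp1 and from -0.19 to 0.050 for Tgfbi. Between the stages in ctrl it ran from -0.46 to 0.14 for Tgfb1, from -0.22 to 0.040 for Tgfb2, from -0.061 to 0.18 for Ltbp1 and from -0.21 to 0.042 for Tgfbi, and in FL1 from -0.30 to 0.059 for Tgfb1. In the interaction it ran from -0.23 to 0.37 for Tgfb1, from -0.23 to 0.0081 for Tgfbr2 and from -0.19 to 0.076 for Tgfbr3, and limma-voom gave -0.062 for Tgfb1. Tgfb1 was the least counted of the members, with 38 to 198 counts per library, and the cause of these changes of sign was not tested.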

Other observations

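The spread between mice differed among the 9 genes and groups. In FL1 diestrus the coefficient of variation of the CPM over 5 libraries was 6.52% for Ltbp3, 7.27% for Tgfbr3, 10.5% for Tgfbr2, 12.02% for Tgfb2, 14.1% for Tgfbi, 15.8% for Ltbp1, 19.6% for Tgfbr1 and 34.6% for Tgfb1. In ctrl estrus it was 6.90% for Tgfb3 and 60.6% for Tgfb1, the widest of the 36 groups, and that group includes the library at 34.8 CPM.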
